A study of Mus musculus with 10 samples.

Results

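The ligands and receptors of the EGF receptor system were followed in colon tissue from C57BL/6 wild-type mice with colitis. The set was a named list of 10 genes: the EGF receptor ligands Areg, Ereg, Hbegf, Tgfa, Egf, Btc and Epgn, the neuregulin gene Nrg1, and the receptor genes Egfr and Erbb2. Of these, 9 had a named probe set among 19505 genes, with 1 probe set each, and Areg was not analysed here. All 10 arrays came from mice given 3% DSS, an epithelium-damaging polysaccharide, in their drinking water and anti-PD1, an antibody against an inhibitory receptor of T cells, by intraperitoneal injection. In 5 of them, called ECP arrays, the mice had also been given donor cells treated by ECP (extracorporeal photopheresis, a procedure that treats white blood cells outside the body with a light-activated drug and ultraviolet light). The other 5 are called control arrays and had colitis without cell transfer. Arrays of healthy colon were not analysed here, so the data compare colitis with and without cell transfer and say nothing of colitis itself. The labels describe the sample as complete colon tissue and give neither age, sex nor the source of the donor cells, nor do they say that each array is a separate mouse. P-values therefore measure the spread between these samples, which may be technical. Values are log2 intensities made by RMA, a normalisation that sets arrays to a common distribution, and a difference of 1 on this scale is a doubling.

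EGF receptor ligands are made as membrane proteins and released by cutting at the cell surface. They bind the receptor tyrosine kinase encoded by Egfr, which pairs with itself or with the partner receptor encoded by Erbb2 and passes the signal on through the RAS and MAP kinase relay, among others. In the gut this system is known for driving epithelial migration, survival and division when the lining is wounded. The comparison asked whether these repair signals differed in mice given ECP-treated cells.

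None of the 9 measured genes differed between ECP and control arrays by limma, a linear model fitted to all genes (adjusted p-values of 0.998 or higher, Benjamini-Hochberg over 19505 genes). Calls at an adjusted p under 0.05 numbered 0 of 9 members, against 0% of all genes. At an unadjusted p under 0.05 there were also 0 of 9, against 5.08% of all genes, and for 0 of 9 the groups did not overlap, against 1.22% of all genes. In the ECP arrays 5 members were higher and 4 lower, where 53.3% of all genes were higher and 46.7% lower. The median difference was 0.01 over the members and 0.01 over all genes, and the median absolute difference was 0.07 in both. The 95% intervals of single members reached from 0.68-fold to 1.35-fold at the widest, both for Ereg, so larger changes of a mean lay outside every member's interval. Differences inside these intervals cannot be told from 0 with these arrays. In whole tissue, fewer cells of a type and less RNA per cell cannot be told apart.

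**Figure D1:**
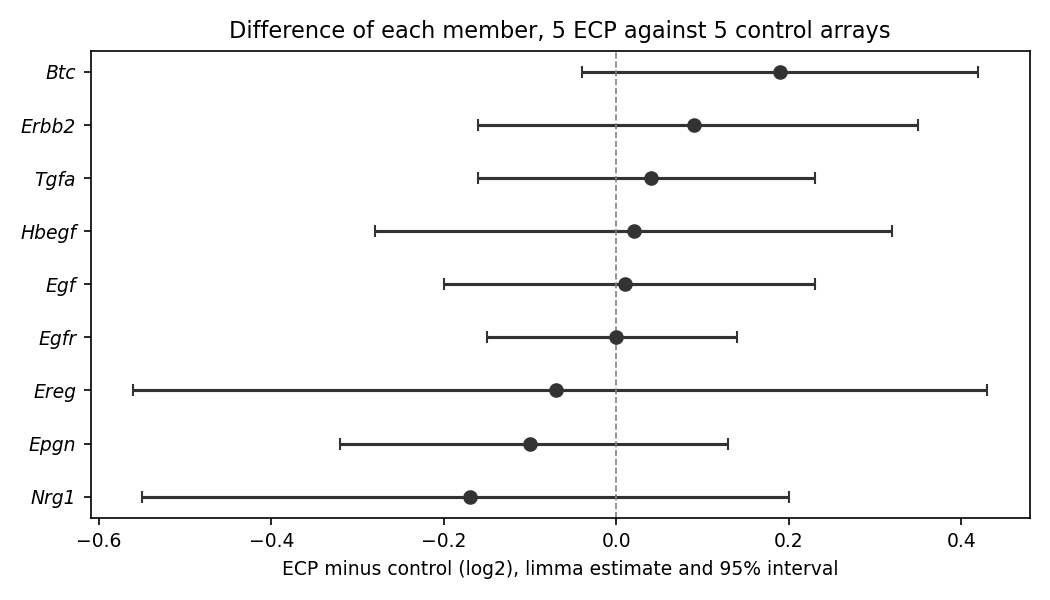
Difference of each of the 9 measured members between 5 ECP and 5 control arrays (ECP minus control, log2, horizontal axis), with points for the limma estimate and bars for its 95% interval. Every bar crosses 0, from Nrg1 at -0.17 to Btc at 0.19, and Egfr has the narrowest bar.

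Btc, which codes for betacellulin, a ligand of the EGF receptor and of the related receptor ErbB4, came closest to a difference. Its log2 levels in ECP replicates 1 to 5 were 7.51, 7.78, 7.77, 7.64 and 7.47. In control replicates 1 to 5 they were 7.58, 7.68, 7.48, 7.18 and 7.32. The groups overlapped, with 4 of 5 ECP arrays above the control median and control replicates 4 and 5 lowest of the 10 arrays. The means were 7.63 ± 0.14 (SD, n = 5) in ECP and 7.45 ± 0.20 (SD, n = 5) in control arrays. This is a difference of 0.19 (SE 0.10, limma unadjusted p = 0.099, adjusted p = 0.998), or 1.14-fold with a 95% interval of 0.97 to 1.33. It ranked 1900th of 19505 genes by p. The difference was 0.12 without control replicate 4 and 0.05 without control replicates 1, 4 and 5. Without control replicate 2 it was 0.25 (limma unadjusted p = 0.0366, adjusted p = 0.98). Its direction held in 22 of 22 alternative settings (0.05 to 0.25), with the smallest adjusted p among them at 0.822. Filtering low genes, averaging probe sets, the trend and robust options and the replicate block cannot change this estimate, which stayed at 0.19. Those settings are no check of its direction.

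Btc lies on mouse chromosome 5 in a cluster of 4 ligand genes. Along the chromosome the protein-coding genes run Epgn, Ereg, Areg and Btc, with no other protein-coding gene between them in the RefSeq gene table. The promoters of the outer 2 genes of this cluster, Epgn and Btc, are shown because they stood at opposite ends in control replicate 4. There Epgn was highest and Btc lowest of all arrays, and Ereg, the gene next to Epgn, was highest as well. The Erbb2 promoter is shown with those of Epgn and Btc, as the receptor whose low value in that array stood farthest from the rest. Each sequence is the 250 bases before the annotated start, 5′ to 3′ on the gene's strand, from RefSeq (GRCm38.p6). Promoters of 6 of the 9 members were kept here, and none is given for Ereg, Hbegf or Nrg1. Capitals mark matches on either strand to any of 5 motifs of promoters and growth factor response, whose letters are given after the sequences, and no printed match overlaps another.
Epgn, chr5:91027267-91027516, plus strand: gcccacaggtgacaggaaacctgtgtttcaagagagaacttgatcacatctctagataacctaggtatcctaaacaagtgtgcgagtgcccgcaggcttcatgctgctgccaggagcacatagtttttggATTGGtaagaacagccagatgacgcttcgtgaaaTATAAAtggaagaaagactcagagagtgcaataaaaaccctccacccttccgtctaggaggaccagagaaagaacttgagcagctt
Btc, chr5:91402995-91403244, minus strand: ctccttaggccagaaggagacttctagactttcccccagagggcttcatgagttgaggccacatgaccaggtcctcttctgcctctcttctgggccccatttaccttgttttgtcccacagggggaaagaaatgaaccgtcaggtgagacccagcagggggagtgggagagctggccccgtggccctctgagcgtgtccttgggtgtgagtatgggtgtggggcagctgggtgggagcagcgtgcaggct
Erbb2, chr11:98412234-98412483, plus strand: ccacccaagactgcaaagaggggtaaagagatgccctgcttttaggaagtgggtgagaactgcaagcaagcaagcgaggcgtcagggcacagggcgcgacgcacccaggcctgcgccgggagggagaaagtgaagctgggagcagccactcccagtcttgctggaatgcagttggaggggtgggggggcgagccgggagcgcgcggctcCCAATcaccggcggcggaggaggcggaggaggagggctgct

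The motifs searched were the TATA box, with the letters TATAAA, the CCAAT box, named by its letters, the GC box, with the letters GGGCGG, the AP-1 motif TGANTCA, and the cyclic AMP response element (CRE) TGACGTCA. The Epgn promoter held a match to the TATA box letters from 86 to 81 bases before the start. It also held a CCAAT box match on the reverse strand from 120 to 116 bases before the start. The Erbb2 promoter held a CCAAT box match from 41 to 37 bases before the start. The Btc promoter held none of the 5 motifs in this window. Whether a match acts where it lies was not tested. Among 32817 mouse promoters of the same length, 12.4% held the TATA box, 33.8% the CCAAT box, 32.7% the GC box, 6.75% the AP-1 motif and 1.55% the CRE. GC content was 46.8% for Epgn, 59.6% for Btc and 66.0% for Erbb2, with a median of 52.4% over those promoters. The promoter of Tgfa held GC box matches at 2 places and that of Egfr at 1 place. Both annotated Egf promoters held none of the 5 motifs.

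Epgn codes for epigen, an EGF receptor ligand of low binding affinity. Its log2 levels were 6.03, 5.85, 5.88, 6.05 and 5.98 in ECP replicates 1 to 5. In control replicates 1 to 5 they were 6.04, 5.96, 5.77, 6.39 and 6.12. Control replicate 4 was the highest array and control replicate 3 the lowest, so the ECP arrays lay wholly within the control range. The difference was -0.10 (SE 0.10, limma adjusted p = 0.998) with all arrays. It was -0.10 without control replicate 1, -0.01 without control replicate 4 and 0.01 without both. Control replicates 1 and 4 held high levels of pancreatic transcripts. With the mean level of pancreatic acinar genes as a covariate the Epgn difference was 0.05 (SE 0.10, limma adjusted p = 0.997). The part of pancreatic transcripts in the Epgn values was not tested.

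Ereg, which codes for epiregulin, a ligand of the EGF receptor and ErbB4 made by both stromal and epithelial cells, varied most among the members. ECP replicates 1 to 5 had log2 levels of 8.93, 9.22, 8.71, 9.31 and 8.91. Control replicates 1 to 5 had 8.37, 9.35, 9.40, 9.65 and 8.65. The control arrays held both the highest and the lowest value, a range of 1.28 or 2.43-fold, against 0.60 among the ECP arrays. The means were 9.02 ± 0.24 (SD, n = 5) and 9.08 ± 0.55 (SD, n = 5), a difference of -0.07 (SE 0.23). All 5 ECP arrays lay below the control median. The difference was 0.07 without control replicate 4 and -0.25 without control replicate 1. Without control replicates 1, 4 and 5 it was -0.36 (SE 0.15, limma unadjusted p = 0.0422, adjusted p = 0.875), and adjusted p-values over the 22 alternatives were 0.852 or higher.

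Hbegf codes for heparin-binding EGF-like growth factor, a ligand induced early after epithelial injury. Its log2 levels in ECP replicates 1 to 5 were 7.83, 8.41, 7.85, 7.90 and 7.95, and ECP replicate 2 stood above the rest. In control replicates 1 to 5 they were 8.11, 8.08, 7.96, 7.54 and 8.13, with replicate 4 lowest. Of the ECP arrays 4 of 5 lay below the control median, while the means were 7.99 ± 0.24 (SD, n = 5) and 7.96 ± 0.25 (SD, n = 5). The difference of 0.02 (SE 0.14) turned to -0.08 without ECP replicate 2, and also to -0.08 without control replicate 4.

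Tgfa and Egf showed the smallest spread among the ligands. Tgfa, which codes for transforming growth factor alpha, a ligand made by the intestinal epithelium itself, ranged from 7.22 to 7.73 in the ECP arrays and from 7.37 to 7.55 in the controls. ECP replicate 1 was the highest and ECP replicate 3 the lowest of all arrays, and the difference was 0.04 (SE 0.09), or -0.03 without ECP replicate 1. Egf, which codes for epidermal growth factor, ranged from 5.87 to 6.19 in the ECP arrays and from 5.82 to 6.30 in the controls, with a difference of 0.01 (SE 0.10). Its sign turned in 7 of 22 alternative settings, with values of -0.05 to 0.07. No detection calls were analysed here, so a low value cannot be separated from an absent transcript.

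Nrg1 codes for neuregulin 1, a ligand of ErbB3 and ErbB4 that in the gut is made by stromal cells. Its log2 levels were 8.53, 8.63, 8.20, 8.47 and 8.10 in ECP replicates 1 to 5. They were 8.12, 8.40, 8.83, 9.08 and 8.38 in control replicates 1 to 5. The values overlapped, with control replicates 3 and 4 above every ECP array. The means were 8.38 ± 0.22 (SD, n = 5) and 8.56 ± 0.39 (SD, n = 5), a difference of -0.17 (SE 0.17, limma adjusted p = 0.998). That is 0.89-fold with a 95% interval of 0.68 to 1.15. Nrg1 was lower in the ECP arrays in 22 of 22 alternative settings, by amounts from -0.29 to -0.05, and -0.05 is the value without control replicate 4. The settings that cannot change the Btc estimate cannot change that of Nrg1 either, and they left it at -0.17.

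Neither receptor gene was called, and both had overlapping groups. Egfr, the receptor of all 7 listed EGF receptor ligands, ranged from 8.50 to 8.75 in the ECP arrays and from 8.54 to 8.72 in the controls. Its means were 8.61 ± 0.10 (SD, n = 5) and 8.61 ± 0.07 (SD, n = 5), and its 95% interval of 0.90 to 1.10-fold was the narrowest of the set. Erbb2, the partner receptor with no ligand of its own, had log2 levels of 10.08, 10.31, 10.19, 10.23 and 10.51 in ECP replicates 1 to 5. In control replicates 1 to 5 it had 10.21, 10.26, 10.33, 9.75 and 10.31. Control replicate 4 stood below all other arrays by 0.33, and the other 4 controls lay inside the ECP range. The Erbb2 difference of 0.09 (SE 0.12, limma adjusted p = 0.998) turned to -0.01 without that array.

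**Figure D2:**
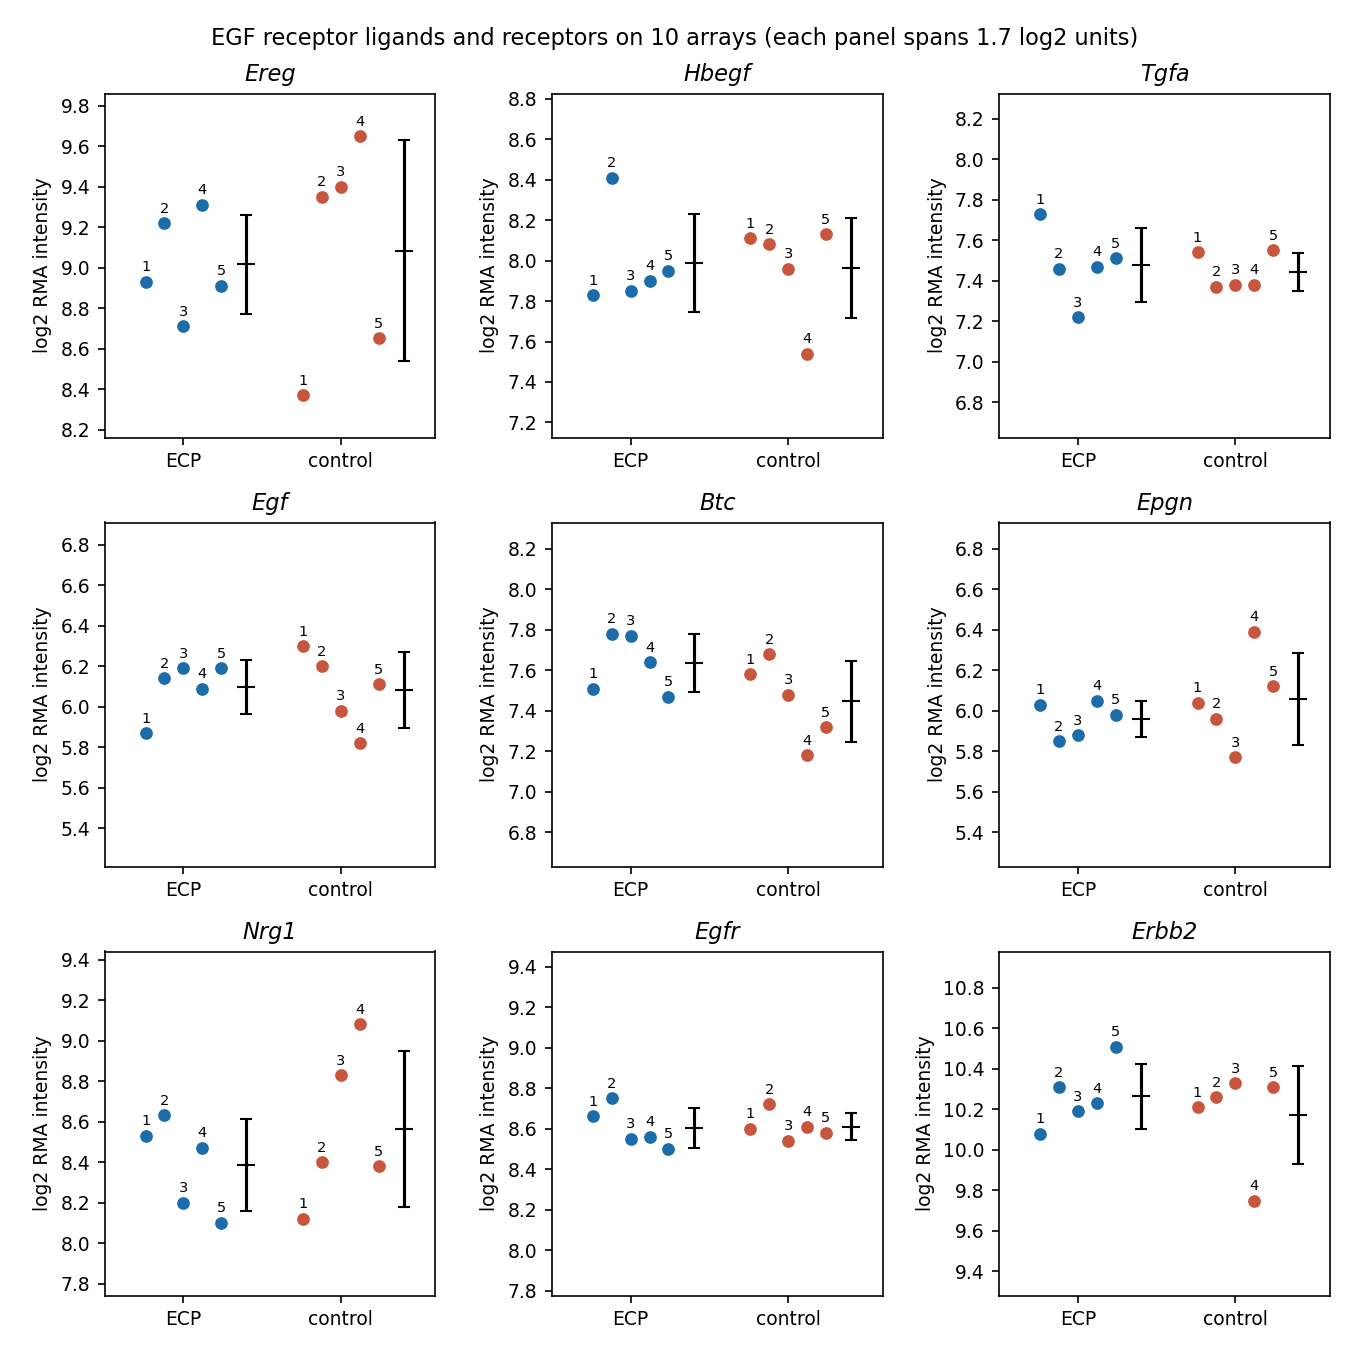
Log2 RMA intensity (vertical axis) of the 9 measured members in 5 ECP arrays (blue) and 5 control arrays (red), with points labelled by replicate number and black bars for mean ± SD (n = 5). The groups overlap in all 9 panels, Ereg is the most spread and Egfr the least, and control replicate 4 is at the edge of 7 panels.

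Single arrays stood out in several members at once. Control replicate 4 held the highest value of Ereg, Epgn and Nrg1 and the lowest value of Hbegf, Egf, Btc and Erbb2, which makes 7 of 9 members, where it was the extreme array for 36.0% of all genes. Against the median of the other 9 arrays, Ereg was higher there by 0.71, Nrg1 by 0.68 and Epgn by 0.41. In the same array Erbb2 differed by -0.51, Hbegf by -0.43, Btc by -0.40 and Egf by -0.32. Egfr and Tgfa lay within the range of the others, with differences of 0.03 and -0.09.

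Marker lists of other cell types stood apart in that array too. The mean of 10 epithelial markers, among them Epcam and Krt20, was 11.87 in control replicate 4 against 11.99 to 12.07 in the other 9 arrays. The mean of 8 measured B cell markers was 8.57 against 5.92 to 7.03, and that of 8 T cell markers 7.25 against 5.88 to 6.45. The mean of 9 neutrophil markers was 8.11 against 5.73 to 6.92. Digestive enzyme genes of pancreatic acinar cells (13 of 15 measured, a list taken up because earlier results had shown them) averaged 12.25 there and 10.42 in control replicate 1. The other controls averaged 5.84 (replicate 2), 5.72 (replicate 3) and 6.53 (replicate 5), and the ECP arrays ranged from 5.56 to 5.75. Without control replicates 1 and 4 the differences were 0.14 for Btc, -0.15 for Nrg1, -0.12 for Ereg, -0.07 for Hbegf, -0.04 for Erbb2 and 0.05 for Tgfa. With the acinar level as a covariate they were 0.10 for Btc, -0.10 for Nrg1 and -0.07 for Ereg. In that fit they were -0.11 for Hbegf, -0.08 for Erbb2 and 0.04 for Tgfa. The part of these other cells in the values of the members was not tested.

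**Figure D3:**
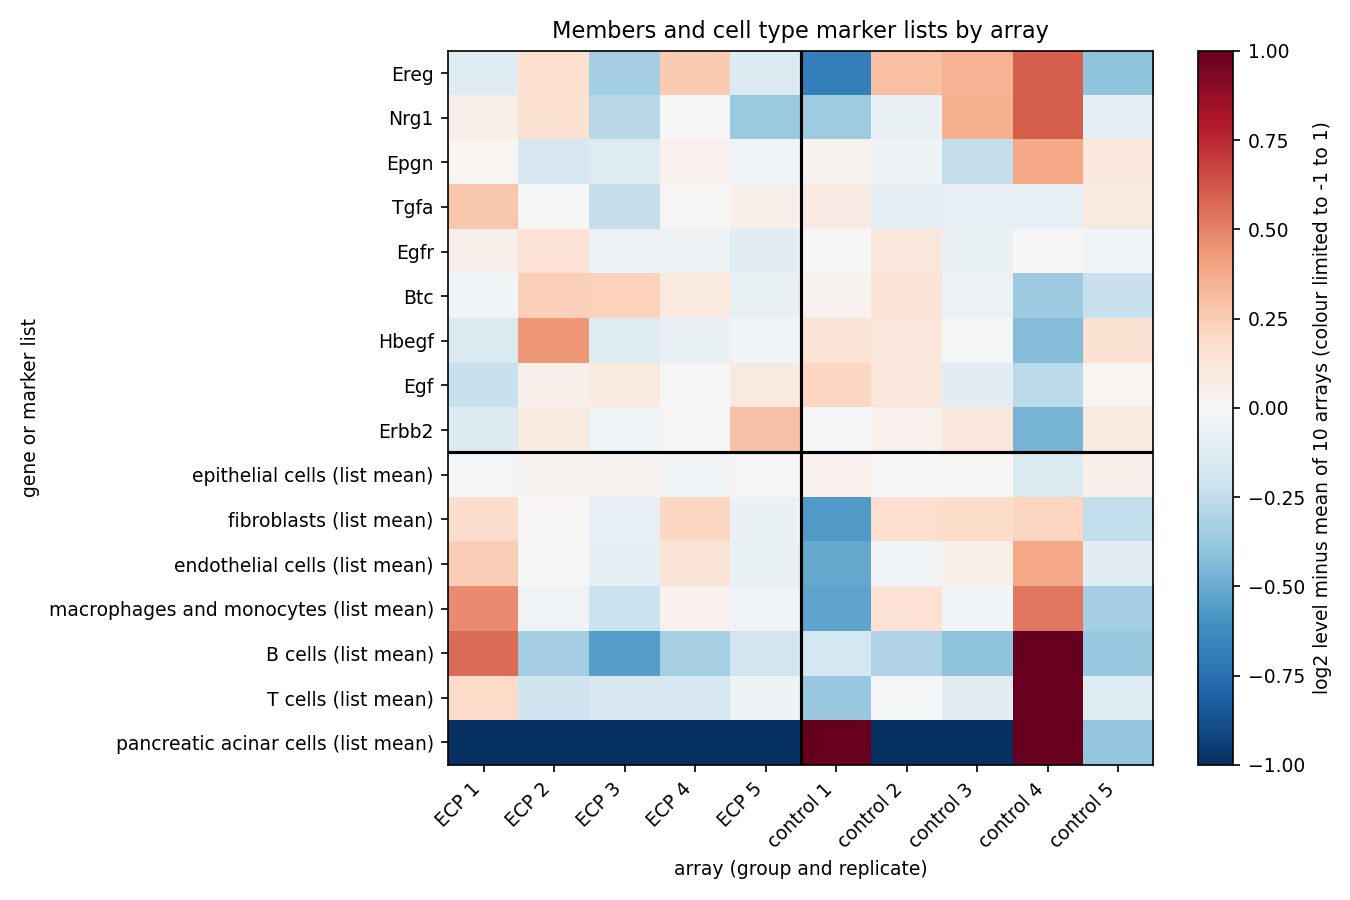
Level of 9 members and 7 marker lists (rows) on the 10 arrays (columns), as log2 level minus the mean of the 10 arrays, with colour limited to -1 to 1. Control replicate 4 is red in Ereg, Nrg1 and Epgn and blue in Btc, Hbegf, Egf and Erbb2. It is also red in the B cell, T cell, pancreatic acinar, macrophage and endothelial lists. Its colour is paler in the fibroblast list (above the mean) and the epithelial list (below it).

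Ereg and Nrg1 varied together across the arrays. Over the 10 arrays Pearson's r was 0.81 (permutation p = 0.00446) and Spearman's rho 0.81 (permutation p = 0.00735), two-sided. Adjusted over the 36 pairs of members computed, these became 0.0803 and 0.218, so the relation did not pass the threshold. It was 0.64 without control replicates 1 and 4, which are also the 2 arrays farthest from the Ereg median. Within groups of 5 arrays r was 0.67 in ECP and 0.87 in control arrays. Egf ran against Nrg1 (r = -0.83, permutation p = 0.00373, adjusted 0.0803; rho = -0.77, permutation p = 0.0121, adjusted 0.218), with r at -0.84 without the 2 arrays farthest from the Egf median and -0.62 without control replicates 1 and 4. Within groups of 5 arrays r was -0.56 in ECP and -0.98 in control arrays. Btc ran against Epgn (r = -0.74, permutation p = 0.0149, adjusted 0.179; rho = -0.59, permutation p = 0.0804, adjusted 0.572). For that pair, leaving out the 2 arrays farthest from the Btc median gave r = -0.33, and it was -0.47 without control replicates 1 and 4. Within groups of 5 arrays it was -0.77 in ECP and -0.73 in control arrays.

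The order of Ereg levels resembled that of fibroblast markers. The mean of 9 measured fibroblast markers, such as the collagen gene Col1a1 and the matrix proteoglycan gene Dcn, was lowest in control replicate 1 (9.15) and control replicate 5 (9.47) and highest in control replicate 4 (9.93). Ereg was lowest in control replicates 1 and 5 as well and highest in control replicate 4. With the fibroblast level as a covariate, an alternative chosen after the data had been seen, the Ereg difference went from -0.07 to -0.22 (SE 0.10, limma adjusted p = 0.852). The Nrg1 difference went from -0.17 to -0.27 (SE 0.12, adjusted p = 0.837). The group difference of neither gene passed the threshold. Endothelial markers followed the same order at their ends, with 6.87 in control replicate 1 and 7.77 in control replicate 4. So did macrophage and monocyte markers, lowest in control replicates 1 (7.83) and 5 (8.02) and highest in control replicate 4 (8.88). The likeness to Ereg was therefore not particular to fibroblast markers, and the endothelial and macrophage levels were not used as covariates.

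**Figure D4:**
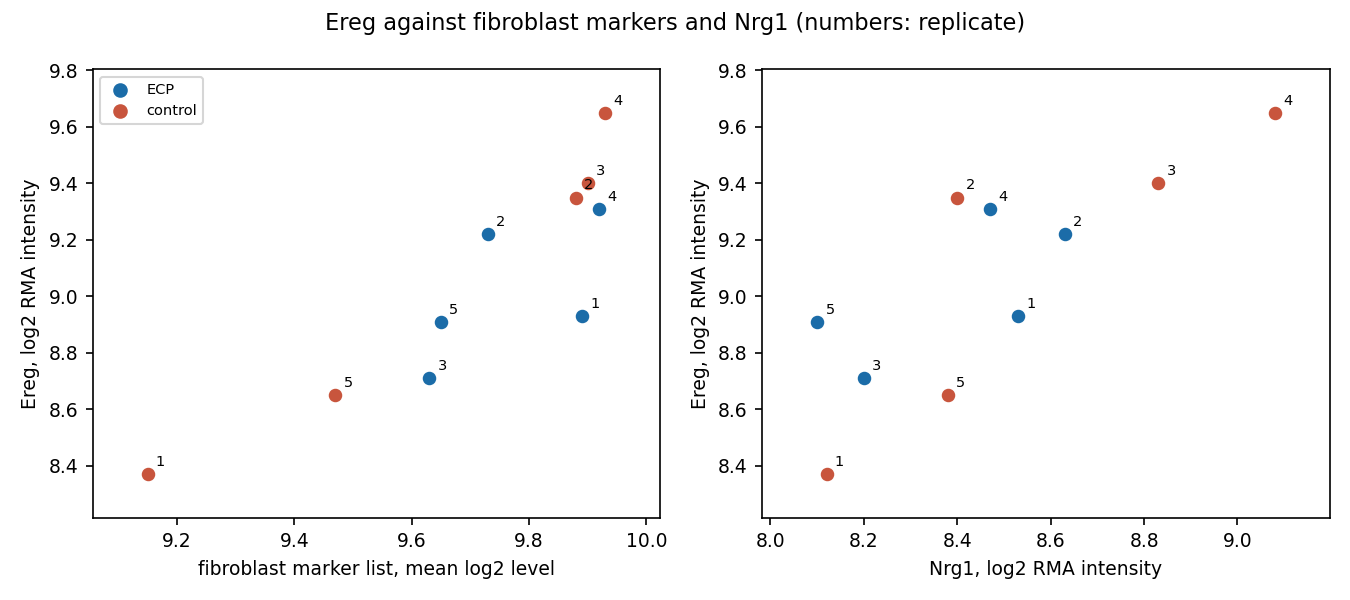
Ereg log2 intensity (vertical axes) against the mean log2 level of 9 fibroblast markers (left) and against Nrg1 log2 intensity (right) on 5 ECP arrays (blue) and 5 control arrays (red), labelled by replicate number. Control replicate 1 sits at the lower left and control replicate 4 at the upper right of the left panel, and ECP replicate 1 lies below the other arrays with a like fibroblast level.

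The genes most like a member in pattern were looked up for the 3 members of largest spread, by Pearson's r over 10 arrays among 19504 other genes. For Ereg these were Mindy2, Washc5 and Creg1 (r of 0.96, 0.96 and 0.95). For Nrg1 they were Ccdc141, Hgf, which codes for hepatocyte growth factor, and Madcam1, which codes for an adhesion molecule of gut vessels (0.95, 0.93 and 0.92). For Hbegf they were Cox8a, Olfr690 and Lamp5 (0.96, 0.95 and 0.94). Over the 8 arrays without control replicates 1 and 4, r for these 9 genes was 0.88 to 0.93. They are the highest of 19504 values each and describe these arrays only.

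No call was made among the remaining genes of the pathway either. Of 66 listed genes 60 were measured, 33 higher and 27 lower in the ECP arrays, and 0 passed the threshold. At an unadjusted p under 0.05 there were 3 (5.0%, against 5.08% of all genes), and their median difference was 0.01, the same as over all genes. Other ErbB receptors and neuregulins (5 genes) had 3 higher and 2 lower, with differences of 0.09 for Nrg2, -0.05 for Nrg4 and -0.02 for Erbb4. The last 2 turned to 0.05 and 0.02 without control replicate 1. Erbb4 was low in both groups (means of 4.24 in ECP and 4.26 in control arrays), below the lower quartile of gene means at 5.25. A level this low cannot be separated here from an absent transcript. Signal relay genes (16 measured of 21) had 10 higher and 6 lower, from -0.05 to 0.09, with the phosphatase gene Ptpn11 at 0.09 and the kinase genes Src and Pik3ca both at -0.05.

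Genes of ligand release, the proteases that cut ligands free and their carriers, had 2 higher and 5 lower of 7, with a median difference of -0.04. Rhbdf2, which codes for iRhom2, a protein that brings the ligand-cutting protease ADAM17 to the cell surface, had the smallest p of this list. Its log2 levels were 7.86, 7.97, 7.74, 7.86 and 7.77 in ECP replicates 1 to 5 and between 7.91 and 8.13 in the control arrays. Only ECP replicate 2 lay above the lowest control. The difference was -0.19 (SE 0.07, limma unadjusted p = 0.0182, adjusted p = 0.862). The related gene Rhbdf1 was at 0.10 (SE 0.08) and the protease gene Adam15 at -0.11 (SE 0.08).

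Receptor inhibitors and feedback genes, which the pathway uses to limit itself, had 11 higher and 5 lower of 16, with a median difference of 0.03. Spry4, which codes for a Sprouty inhibitor of the MAP kinase relay, had log2 levels of 7.34, 7.09, 7.22, 7.18 and 7.17 in ECP replicates 1 to 5. In control replicates 1 to 5 it had 7.14, 7.02, 7.14, 6.70 and 6.79. The groups overlapped through ECP replicate 2, and control replicates 4 and 5 were lowest. Its difference was 0.24 (SE 0.10, limma unadjusted p = 0.0290, adjusted p = 0.939). The related gene Spry2 differed by 0.13 (SE 0.08) and Cbl, which codes for the ubiquitin ligase that marks the receptor for breakdown, by -0.10 (SE 0.08).

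Genes induced early by growth factor signals had 7 higher and 9 lower of 16 measured, with a median difference of 0.00. Atf3, a stress-induced transcription factor gene, had log2 levels of 8.47, 9.20, 9.06, 8.82 and 9.07 in ECP replicates 1 to 5. In control replicates 1 to 5 it had 9.28, 9.58, 9.22, 9.03 and 9.46, and all 5 ECP arrays lay below the control median. The difference was -0.39 (SE 0.14, limma unadjusted p = 0.0187, adjusted p = 0.862). The transcription factor gene Etv4 was at 0.27 (SE 0.18), or 0.07 without control replicate 4, which at 6.17 lay below all others, and Phlda1 at 0.17 (SE 0.13), or 0.08 without control replicate 5.

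**Figure D5:**
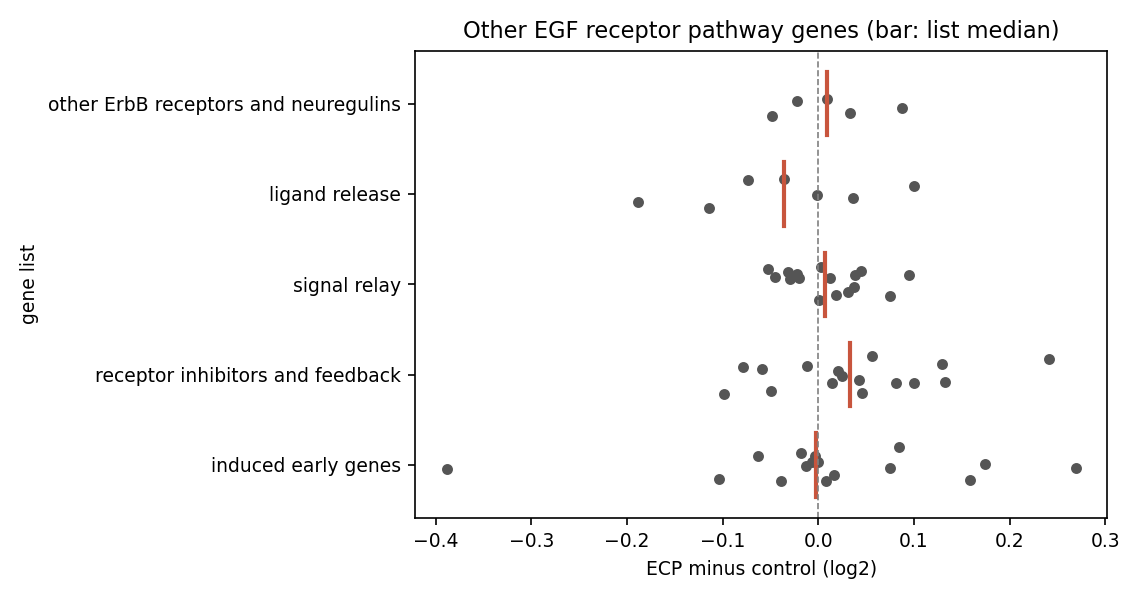
Difference of 60 measured pathway genes between ECP and control arrays (log2, horizontal axis) in 5 lists (rows), with a point per gene and a red bar at each list median. The medians lie between -0.04 and 0.03, and the points farthest out are Atf3 at -0.39 and Etv4 at 0.27 (0.07 without control replicate 4).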

How the data were processed

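Total RNA of complete colon tissue was measured on 10 single-colour arrays. The authors deposited log2 intensities per probe set, and the submitters' processing notes name oligo and RMA. For their versions, options and genome build, nothing is given in the sources used here. The 22203 probe sets had values of 2.81 to 13.57 and array medians of 6.94 to 6.98. RMA brings arrays to one distribution, so a shift common to most genes is hidden, and the number of arrays limits the precision. Arrays correlated at 0.977 to 0.996 and no pair was identical.

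Names came from the platform's annotation: 19572 probe sets had 1 symbol, 0 had several and 2631 had none. All 19572 matched the RefSeq gene table by gene ID, and 0 symbols changed. The probe set with the highest mean was kept for the 55 genes with several, none of them a member. Groups and replicate numbers came from the sample titles. The values were fitted with limma 3.58.1 in R 4.3.3 (lmFit and eBayes, two-sided, 5 against 5 arrays, no covariate, no filter), with Benjamini-Hochberg adjustment over 19505 genes and a threshold of 0.05, and the script was tested on simulated data. Correlations between members used 100000 permutations each. List levels are means of log2 values over the measured genes of a list. The members, the pathway and marker lists and the alternatives were chosen with earlier results of these data known. All members are named, with the 3 genes of smallest p in each pathway list, the 3 genes most like each of the 3 most variable members, and a few cell type markers.

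Alternatives were centring on array medians, a second quantile normalisation, a filter on genes in the lowest quartile of mean level, averaging probe sets per gene, the trend and robust options of eBayes, weights per array, the replicate number as a block, leaving out each array in turn, control replicates 1 and 4 together, or control replicates 1, 4 and 5, and covariates for epithelial, acinar and fibroblast levels. The last was added after the data were seen. The same-numbered arrays of the groups did not deviate together, so the numbers were not taken as pairs.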

Additional observations from a re-analysis of the deposited data

Results flagged for a closer look

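In groups of 5 arrays, 1 array was taken to lie apart where its gap to the nearest other exceeded 0.71 of the group's range. This held in 12 of 76 groups, for 9 members, 15 other pathway genes and 14 marker lists. Chance would give about 4 if values were normal and the groups independent. The items share the same 10 arrays, and the pathway genes were picked by smallest p. The count of 12 is therefore no test against chance. Control replicate 4 accounts for 6 of the 12. It was low in Hbegf (7.54, next 7.96), Erbb2 (9.75, next 10.21), Etv4 (6.17, next 7.09) and the epithelial list (11.87, next 12.02), and high in the B cell list (8.57, next 6.29) and the T cell list (7.25, next 6.25). ECP replicate 2 was high in Hbegf (8.41, next 7.95) and low in the adipocyte list (6.91, next 7.62). Control replicate 1 was high in Nrg2 (7.33, next 6.84) and low in Pik3ca (9.54, next 9.77). ECP replicate 3 was high in Erbb4 (4.37, next 4.23), a gene too low here to be told from an absent transcript. Control replicate 5 was low in the adipocyte list (6.56, next 7.21).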

How the results depend on the processing

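No member and no other pathway gene passed the threshold under any of the 22 alternatives. The count over all genes went from 0 to 1 when the lowest quartile of genes was left out (Ccna2), with trend and robust options (Ccna2) and without control replicate 3 (Cenpf), and was 0 to 1 over the 10 fits that leave out an array. With the replicate block 0 genes were called and 886 had an unadjusted p under 0.05, against 991 without it. Deviations of same-numbered arrays correlated at -0.24 to 0.08 and 0 of 5 ECP arrays correlated best with its own number. Btc and Nrg1 kept their direction in all 22 alternatives. Other signs turned. The filter, averaging of probe sets, trend and robust options and replicate block cannot change any member's estimate, so they do not test a direction. Leaving out 1 array gave Ereg -0.25 to 0.07, Hbegf -0.08 to 0.06, Tgfa -0.03 to 0.10, Egf -0.05 to 0.07, Egfr -0.04 to 0.02, Erbb2 -0.01 to 0.14 and Epgn -0.17 to -0.01. Turned values without control replicates 1 and 4 were -0.07 for Hbegf, 0.00 for Egf, 0.01 for Epgn and -0.04 for Erbb2. Without control replicates 1, 4 and 5 they were -0.04 for Hbegf, 0.10 for Epgn and -0.03 for Erbb2. With the epithelial level as a covariate they were 0.01 for Ereg, -0.02 for Hbegf and -0.02 for Egf. With the acinar level they were -0.11 for Hbegf, -0.03 for Egf, 0.05 for Epgn and -0.08 for Erbb2, and with array weights -0.02 for Hbegf. The cause of these turns was not tested.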

Other observations

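The other marker lists gave these mean differences, ECP minus control on the log2 scale and without a test. Adipocyte markers stood at 0.38 (0.24 without control replicate 5), enteric neuron and glia markers at 0.10 (0.04 without control replicate 1), red blood cell markers (2 of 5 measured) at 0.05, mast cell markers at -0.04 and pancreatic duct and islet markers at -0.09. Smooth muscle markers stood at 0.29, or 0.15 without control replicate 1. Without that array 3 lists turned sign: fibroblast markers went from 0.10 to -0.03, macrophage markers from 0.09 to -0.03 and endothelial markers from 0.08 to -0.04. Without control replicate 4, B cell markers went from -0.34 to 0.15, T cell markers from -0.15 to 0.08, neutrophil markers from -0.13 to 0.23 and epithelial markers from 0.01 to -0.02. Acinar genes went from -2.47 to -1.44 without that array. These values without an array were computed after the data had been seen.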
